A study of Homo sapiens with 8 samples.

Results

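The mitochondrial protein import machinery was described by its mRNAs in cells sampled without and at 9 h of an inhibitor of transcription. It was taken as 37 named genes, and each RefSeq transcript that the RefSeq gene table pairs with one of these symbols was a row of the set. All 37 were measured in both cell populations, out of 12480 genes with a value in both, through 54 transcripts, 5 of them non-coding. The cells were SW480, an established human colorectal adenocarcinoma line, and carried stably either an shRNA that targets the RNA-binding protein RBMS1 or a control shRNA. Each population was sampled at 9 h of alpha-amanitin, which inhibits RNA polymerase II, at 10 µg/mL, and at 0 h without it, with 2 libraries in each of the 4 groups. The design text lists 2 RBMS1 clones and the samples' treatment protocol 1 of them, so whether the knockdown rests on 1 clone is not settled. The deposited values were 1 log fold change per transcript and population, with the libraries already combined. Their headers give neither log base nor direction, and they were read as log2 of 9 h over 0 h. Below 0 thus means a lower share of the library at 9 h than at 0 h.

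Almost all mitochondrial proteins are made in the cytosol and have to be imported. In the textbook scheme the TOM complex is the entry gate of the outer membrane, and from there precursors are handed to the SAM complex for barrel-shaped outer membrane proteins, to the MIA pathway and the small TIM chaperones of the intermembrane space, to TIM22 for carrier proteins, or to TIM23 for proteins with a cleavable presequence. The PAM motor, built around the mitochondrial HSP70, pulls the last kind into the matrix, where the processing peptidase removes the presequence. A pair of the genes have other places: TOMM34 encodes a cytosolic cochaperone of HSP70 and HSP90, and TIMMDC1, despite its name, an assembly factor of respiratory complex I.

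The spread between libraries and the depth are unknown, so no test was run and no single difference can be called. Each value is a change in share relative to other RNAs, and a bulk library does not tell less RNA per cell from fewer cells. In the tables, EPCAM, KRT8, KRT18 and CDH1, markers of epithelial cells, were listed for both populations, as was the mesenchymal marker VIM. A gene's value is the mean over its listed transcripts, and over those in both tables where a gene is named or the populations are compared.

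The median change in library share was slightly higher for import genes than for all genes, in both populations. The median of the 37 genes was 0.12 in RBMS1 knockdown cells and 0.17 in control cells, against medians over all genes of −0.05 in knockdown and −0.07 in control cells. Above 0 lay 25 of 37 in knockdown cells, where 46.6% of all genes did, and 25 of 37 in control cells, where 45.9% did. The quartiles of the import genes were −0.17 and 0.30 in knockdown and −0.09 and 0.32 in control cells, a narrower span than that of all genes, at −0.47 and 0.31 in knockdown and −0.52 and 0.31 in control cells.

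Few import mRNAs lay past 2-fold, a size of 1 on the log2 scale. At −1 or below lay 1 of 37 import genes in knockdown cells, TOMM40L, against 9.49% of all genes, and 0 of 37 in control cells, against 10.7%. At 1 or above there were 0 of 37 in knockdown cells, against 5.26% of all genes, and 0 of 37 in control cells, against 4.84%. At a size of 0.5 or more, 4 import genes were lower and 2 higher in knockdown cells, against 24% and 14.1% of all genes, and 1 lower and 4 higher in control cells, against 26% and 14.2%. Set relative to cytosolic ribosomal protein mRNAs, a scale on which the median of all genes was −0.42 in knockdown and −0.48 in control cells, the import medians changed sign to −0.25 in knockdown and −0.24 in control cells, and 5 of 37 genes lay above 0 in each, against 20.5% of all genes in knockdown and 18.5% in control cells. That scale subtracts 1 constant per population from every gene, so it changes the sign of values and not the distance of the import genes from the median of all genes.

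Among other nuclear-encoded mitochondrial genes, mitochondrial ribosomal proteins had a median of 0.13 in knockdown and 0.23 in control cells over 77 genes. Respiratory chain subunits, also 77 genes, stood higher than import genes in both populations, at 0.39 in knockdown and 0.45 in control cells. At −1 or below in each population lay 1 of 77 mitochondrial ribosomal proteins and 0 of 77 respiratory chain subunits. The share of all genes there was 9.49% in knockdown and 10.7% in control cells. At 1 or above lay 1 of 77 mitochondrial ribosomal proteins in each population. Of respiratory chain subunits, 5 of 77 did in knockdown and 4 of 77 in control cells, against 5.26% and 4.84% of all genes. These are values set side by side, and the differences between the groups were not tested.

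**Figure D1:**
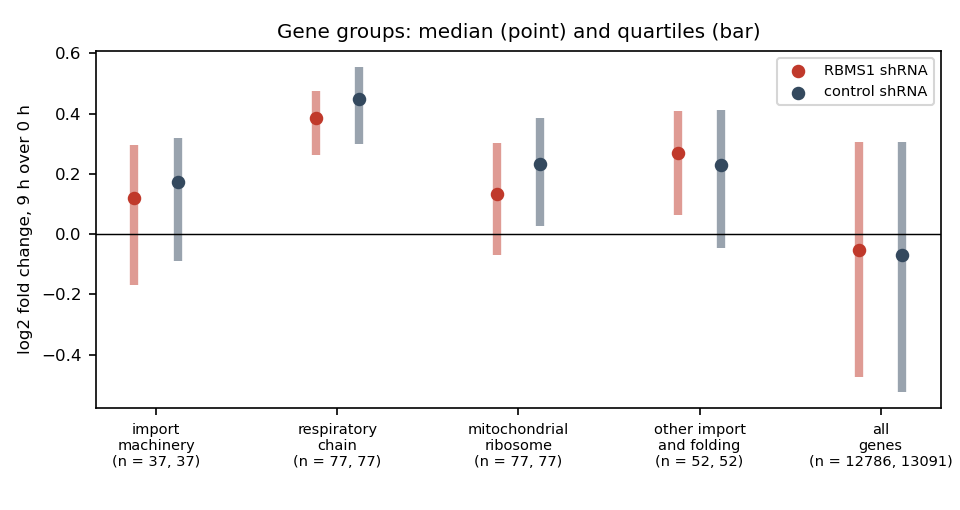
Median log2 fold change of 9 h over 0 h (points) and quartiles (bars) for the import machinery, 3 related groups and all genes, in cells with the RBMS1 shRNA and the control shRNA; numbers of genes are under each group. The import machinery has medians of 0.12 in RBMS1 knockdown and 0.17 in control cells, above all genes at −0.05 in knockdown and −0.07 in control cells and below the respiratory chain at 0.39 in knockdown and 0.45 in control cells.

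The outer membrane gate held mRNAs at both ends. TOMM40 (chromosome 19, 44891254 to 44903689, GRCh38) encodes the pore itself, and as the mean of 3 transcripts of the authors' deposited tables it was at 0.67 in knockdown and 0.32 in control cells. Its small partner subunits lay beside it in the authors' deposited tables, with TOMM6 at 0.51 in knockdown and 0.51 in control cells and TOMM7 at 0.44 in knockdown and 0.45 in control cells. TOMM5, another small subunit, averaged 0.48 in knockdown and 0.23 in control cells over 3 transcripts of the authors' deposited tables. The central receptor TOMM22 was at 0.36 in knockdown and 0.37 in control cells in the authors' deposited tables. By gene means of the deposited values, pore, central receptor and small subunits, 5 mRNAs, were thus all above 0 in both populations. Of the 3 TOMM40 transcripts, the one nearest to 0 in control cells was deposited at −0.18 there and at 1.10 in knockdown cells. Relative to ribosomal protein mRNAs, TOMM22 was at −0.02 in knockdown cells, and 3 of the 5 were below 0 in control cells, TOMM5 at −0.18, TOMM40 at −0.09 and TOMM22 at −0.04. By gene means, 5 of all 8 TOM genes in knockdown and 6 of 8 in control cells were above 0. Of all genes, 46.6% in knockdown and 45.9% in control cells were.

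The peripheral receptors and the paralog of the pore were lower. TOMM20, the receptor for presequences, was at −0.10 in knockdown and 0.09 in control cells in the authors' deposited tables. TOMM70, the receptor for carriers and other hydrophobic precursors, was at −0.47 in knockdown and −0.46 in control cells in the authors' deposited tables. TOMM40L (chromosome 1, 161226060 to 161230746), a paralog of TOMM40, had the lowest mean of all import genes and was at −1.03 in knockdown and −0.79 in control cells in the authors' deposited tables. Each of these 3 had 1 transcript. Exons of TOMM40L share 19.4% of the annotated transcript with NR1I3 on the opposite strand, and whether the authors counted by strand is not given in the sources used here. In the cytosol, TOMM34 was at 0.27 in knockdown and 0.22 in control cells in the authors' deposited tables.

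In the sorting and assembly machinery of the outer membrane, SAMM50, the barrel-inserting subunit, was at 0.30 in both populations in the authors' deposited tables. Its metaxin partners lay apart, with MTX1 at 0.20 in knockdown and 0.53 in control cells and MTX2 at −0.27 in knockdown and −0.10 in control cells in the authors' deposited tables. On the opposite strand, exons of MTX1 overlap AC234582.2 over 11% of the transcript and THBS3 over 8.95%.

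The MIA pathway folds small cysteine-rich proteins in the intermembrane space by forming disulfide bonds. CHCHD4, the oxidoreductase of the pathway, averaged 0.17 in knockdown and 0.01 in control cells over 2 transcripts of the authors' deposited tables. Of these, NM_144636 was at 0.58 in knockdown and −0.03 in control cells and NM_001098502 at −0.24 in knockdown and 0.06 in control cells in the authors' deposited tables, so the centred differences between populations, 0.63 and −0.28, had opposite signs. GFER, the sulfhydryl oxidase that keeps CHCHD4 oxidised, was lower, at −0.60 in knockdown and −0.37 in control cells in the authors' deposited tables. GFER shares 27.9% of its transcript with exons of AC005606.2 on the opposite strand. Among the chaperones, TIMM13 was at 0.12 in knockdown and 0.15 in control cells and TIMM10 at −0.18 in knockdown and −0.09 in control cells in the authors' deposited tables. Their partners TIMM8A, mutated in deafness-dystonia syndrome, and TIMM9 had several transcripts and are described with those below.

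The carrier translocase TIM22 was the lowest group by its median in knockdown cells, −0.73 over 3 genes, and stood at −0.21 in control cells. TIMM22 (chromosome 17, 997129 to 1003671), its channel subunit, was at −0.73 in knockdown and −0.20 in control cells in the authors' deposited tables. TIMM10B (chromosome 11, 6481501 to 6484681), the small TIM protein bound to it, was at −0.83 in knockdown and −0.47 in control cells in the authors' deposited tables. TIMM29, a further subunit, was at 0.02 in knockdown and −0.21 in control cells in the authors' deposited tables, higher in knockdown cells, where the other two were lower. Both TIMM22 and TIMM10B lay below the median of all genes in each population.

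Of the presequence translocase TIM23, 3 of 5 genes in knockdown and 4 of 5 in control cells were above 0 by gene means. Of all genes, 46.6% in knockdown and 45.9% in control cells were, and with 5 genes the counts set TIM23 apart in neither population. TIMM17A was at 0.36 in knockdown and 0.32 in control cells and the receptor TIMM50 at 0.30 in knockdown and 0.38 in control cells in the authors' deposited tables. TIMM21, which links TIM23 to the TOM complex and the respiratory chain, was at −0.10 in knockdown and 0.17 in control cells in the authors' deposited tables. The channel subunit TIMM23 averaged 0.29 in knockdown and 0.08 in control cells over 2 transcripts of the authors' deposited tables. That gap rests on the non-coding NR_073030, at 0.39 in knockdown and −0.05 in control cells, while the coding transcript was at 0.19 in knockdown and 0.21 in control cells in the authors' deposited tables. The reference pairs both TIMM23 transcripts with the same GENCODE model. TIMM23 has a near-identical copy, TIMM23B, so reads may have been split between the genes, and the values of both genes are uncertain. TIMM17B, the alternative to TIMM17A in the complex, averaged −0.17 in knockdown and −0.07 in control cells over 2 transcripts.

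In the PAM motor, GRPEL1 (chromosome 4, 7058895 to 7068064) and GRPEL2 (chromosome 5, 149345499 to 149354583) both encode nucleotide exchange factors for the mitochondrial HSP70. GRPEL1 was at 0.47 in knockdown and 0.57 in control cells in the authors' deposited tables. GRPEL2 was at −0.45 in knockdown and −0.48 in control cells in the authors' deposited tables, so this pair was about 1 log2 unit apart in each population. HSPA9, the HSP70 itself, was near 0, at 0.02 in knockdown and 0.10 in control cells in the authors' deposited tables. TIMM44, which tethers it to the channel, was at 0.07 in knockdown and 0.06 in control cells in the authors' deposited tables. Of the J-proteins that drive the motor, DNAJC15 was at 0.21 in knockdown and 0.28 in control cells in the authors' deposited tables. PAM16, the J-like regulator, was at 0.34 in knockdown and 0.18 in control cells in the authors' deposited tables. Of its transcript, 75.5% overlaps the readthrough gene CORO7-PAM16 on the same strand, so reads from that part cannot be told apart from those of the readthrough.

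The subunits of the processing peptidase were apart as well. In the authors' deposited tables the alpha subunit PMPCA was at 0.19 in knockdown and 0.35 in control cells and the catalytic beta subunit PMPCB at −0.24 in knockdown and −0.03 in control cells. TIMMDC1 was at 0.17 in knockdown and 0.32 in control cells in the authors' deposited tables, and 33.3% of its transcript overlaps exons of CD80 on the opposite strand. In all, 19 of 37 import genes shared exonic bases with another annotated gene. With a single one, 10 shared at least 10% of the transcript. The share over all genes was not computed, so these counts are not read as a trait of import genes. Among those not named above, TIMM8B shared 41.5% with NKAPD1, TIMM9 16.7% with KIAA0586 and TIMM13 15.9% with TMPRSS9, all on the opposite strand. On the same strand, TOMM5 shared 15.1% with AL513165.2 and TIMM13 also 13% with LMNB2. PMPCB shared 13.1% with DNAJC2 on the opposite strand. The part of such overlaps in the values was not tested.

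Of the 37 genes, 28 had 1 listed transcript and 9 had several. Transcripts of the same gene lay 1 or more apart for 2 of 9 import genes in knockdown cells, where 53.5% of all genes with several transcripts did, and for 2 of 9 in control cells, where 53.8% did. These were TIMM9 and DNAJC19 in both tables.

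TIMM9 (chromosome 14, 58408494 to 58427531), the partner of TIMM10 in the chaperone ring, had 5 listed transcripts. In the authors' deposited tables, NM_012460, matched to a GENCODE model with a coding region of 270 nt, was at −0.57 in knockdown and −0.85 in control cells. NM_001304486, with the same coding length, was at −0.27 in knockdown and −0.25 in control cells in the authors' deposited tables. NM_001304490, with a shorter coding region of 183 nt, was at 0.43 in knockdown and −1.51 in control cells in the authors' deposited tables. In the authors' deposited tables a further transcript, at 0.82, was listed for knockdown cells alone and another, at 1.56, for control cells alone. The wide gap between populations at the level of TIMM9 thus came mainly from a single short variant, while both transcripts of full coding length were below 0 in each population.

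DNAJC19 (chromosome 3, 180983709 to 180989838), a J-protein mutated in dilated cardiomyopathy with ataxia, had 5 listed transcripts and the highest mean of the import genes. Its coding transcript NM_145261 was near 0, at −0.02 in knockdown and −0.05 in control cells in the authors' deposited tables. Of the non-coding transcripts, NR_033721 was at 0.12 in knockdown and 1.78 in control cells and NR_033722 at −0.32 in knockdown and 1.25 in control cells in the authors' deposited tables. The third, NR_033723, was at 1.37 in knockdown and 0.87 in control cells in the authors' deposited tables. With the coding transcripts alone, the gene was near 0 in both populations. The rank of DNAJC19 therefore rests on transcripts listed as non-coding. The reference pairs NR_033721 with the same GENCODE model as the coding NM_145261 and so does not separate them.

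Other genes with several transcripts showed smaller gaps. For TIMM8A, NM_001145951 was at 0.39 in knockdown and 0.50 in control cells and NM_004085 at −0.15 in knockdown and 0.02 in control cells in the authors' deposited tables, so the order was the same in both populations. The higher of these has an annotated 3′UTR of 349 nt and the lower one of 838 nt. Their coding regions, 147 against 294 nt, and 5′UTRs, 62 against 532 nt, differ as well. TIMM17B also kept its order, with NM_005834 at 0.25 in knockdown and 0.20 in control cells and NM_001167947, whose coding region is 669 nt against 519 nt, at −0.59 in knockdown and −0.35 in control cells in the authors' deposited tables. For TOMM40, 2 transcripts lay between 0.45 and 0.68 in both populations, whereas NM_006114 was at 1.10 in knockdown and −0.18 in control cells in the authors' deposited tables. The model of NM_006114 differs from that of NM_001128916 by 2 nt in total length, 1707 nt against 1709 nt. For TIMM8B, the coding transcript was at 0.16 in knockdown and 0.52 in control cells in the authors' deposited tables, and the non-coding one at 0.04 in knockdown and −0.07 in control cells.

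**Figure D2:**
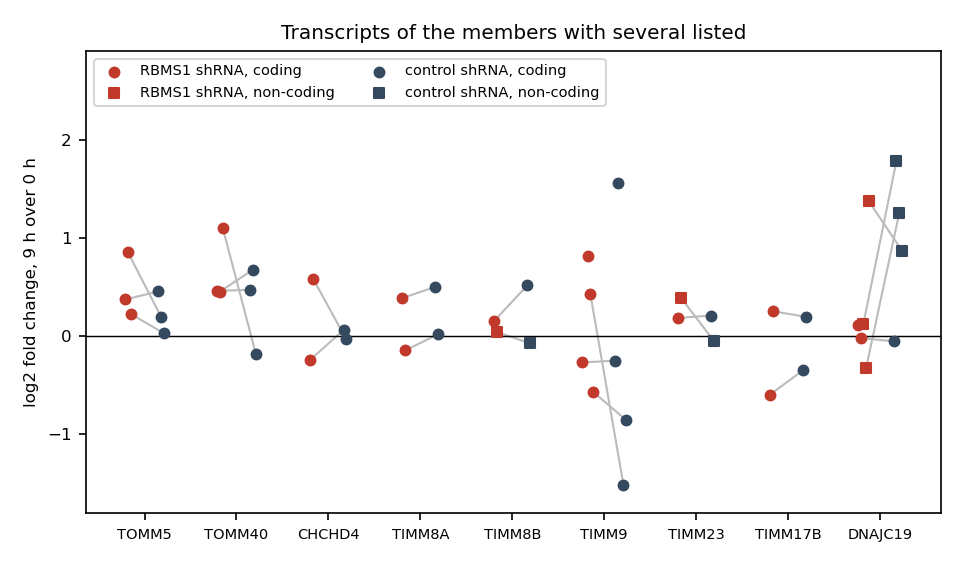
Log2 fold change of 9 h over 0 h for every transcript of the 9 import genes with several listed, in cells with the RBMS1 shRNA (left of each pair) and the control shRNA (right), with a line joining a transcript listed in both tables; squares are non-coding. TIMM9 and DNAJC19 have the widest spread, and TIMM8A and TIMM17B keep the order of their transcripts in both populations.

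The lowest members with 1 transcript had long annotated 3′UTRs, though not every long 3′UTR went with a low value, and TIMM9, with several transcripts, was low with one of 540 nt. Import genes had a median 3′UTR of 931 nt, against 1111 nt over all 10976 genes with one, and a median coding length of 618 nt, against 1341 nt. Spearman's rho between 3′UTR length and the mean of both populations was −0.30 across the 37 import genes against −0.19 across all genes. It was −0.40 across the 28 with 1 transcript, against −0.22 across the 6045 such genes. Coding length gave −0.10 across import genes and −0.22 across all genes. These coefficients run across genes measured in the same libraries and carry no test.

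All 6 import genes with 1 transcript and a mean below −0.4 had a 3′UTR of 1512 to 3301 nt: TOMM40L, TIMM10B, GFER, GRPEL2, TOMM70 and TIMM22. The limits were chosen after seeing the values. Over all 10976 genes with a 3′UTR, 4421 had one of 1500 nt or more. In that range, 58.3% of import genes had a mean below 0, against 64.9% of all genes, so long 3′UTRs did not mark import genes out. The other 6 with a 3′UTR of at least 1500 nt, TOMM20, TOMM22, TIMM21, DNAJC15, GRPEL1 and HSPA9, had means of −0.01 to 0.52. Among them, DNAJC15 had the longest 3′UTR of the set, with 6976 nt. By length range, the 12 import genes with 1500 nt or more had a median of −0.28 in knockdown and −0.05 in control cells, against −0.17 in knockdown and −0.19 in control cells over all genes of that range. The 12 import genes under 500 nt had 0.19 in knockdown and 0.20 in control cells, against 0.11 in knockdown and 0.10 in control cells over all genes. Between these, 13 import genes had 0.17 in knockdown and 0.26 in control cells, where all genes of the range had −0.10 in knockdown and −0.10 in control cells.

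**Figure D3:**
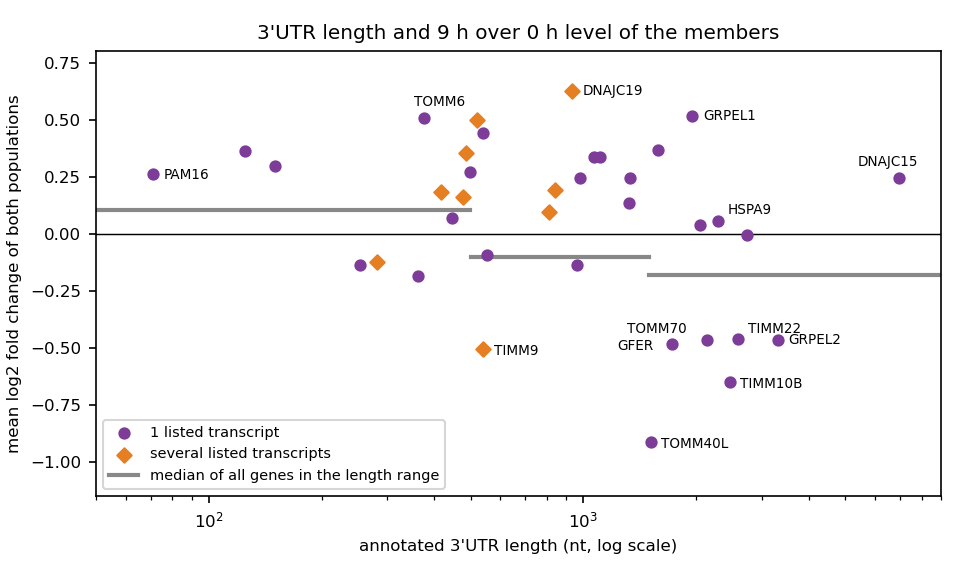
Annotated 3′UTR length (log scale) against the mean log2 fold change of both populations for the 37 import genes, with the median of all genes in 3 length ranges as grey lines. The 6 lowest genes with 1 transcript, a cut chosen after seeing the values, all have 3′UTRs of 1512 to 3301 nt. GRPEL1, DNAJC15 and others with long 3′UTRs lie above 0.

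Short words in the 3′UTR were counted in the GENCODE models, since the RBMS family is known to bind AU-rich RNA and the word ATTTA is the core of AU-rich elements. The words searched on the transcribed strand were ATTTA and ATATA, with overlapping matches counted, and, for the element of Pumilio proteins, TGTANATA. Where its N is T, the last word holds an ATATA as well. At least 1 ATTTA was found in 28 of 37 import 3′UTRs (75.7%), against 70% of all, and at least 1 ATATA in 22 of 37 (59.5%), against 58.5% of all. At least 1 TGTANATA was found in 8 of 37 (21.6%), against 27.4% of all. The following windows of 30 bases, with the matched words in capitals, show the densest stretch in TIMM10, whose 3′UTR is the richest in ATATA, and in the paralogs GRPEL1 and GRPEL2, which lay apart, and DNAJC19, whose coding transcript is dense in ATTTA. On GRCh38 they lie at chr11:57528488-57528517 (minus strand), chr4:7060080-7060109 (minus strand), chr5:149351325-149351354 (plus strand) and chr3:180984140-180984169 (minus strand), all in 3′UTR exons.
TIMM10: tATATATATATATATATATATATATATATA
GRPEL1: tgtttaATTTAaaatttttATTTAagagga
GRPEL2: ctatgtttcttttATTTAttaaactaggtt
DNAJC19: accttgtATTTAaaagtgaATTTAaccaca

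TIMM10 holds an AT repeat with 15 overlapping ATATA matches in a 3′UTR of 254 nt, and 0.272% of the 367 3′UTRs within 10% of that length hold as many. Its mRNA was at −0.18 in knockdown and −0.09 in control cells in the authors' deposited tables, a difference inside the quartiles of all genes. GRPEL2 has 13 ATTTA in 3301 nt and GRPEL1 6 in 1956 nt; as many are held by 17.5% and 35.5% of 3′UTRs of like length. DNAJC15 also has 13 ATTTA and lay above 0 in both populations. DNAJC19 has 9 in 931 nt, a number reached by 0.459% of 3′UTRs of like length, with its coding transcript near 0. Across the 37 genes, Spearman's rho between the number of ATTTA and the mean of both populations was −0.05, against −0.17 across all genes, and that for ATATA −0.20, against −0.17. With the centred difference between populations, rho was −0.29 for ATTTA, against −0.03 across all genes, and −0.15 for ATATA, against −0.04. The length of the 3′UTR alone gave −0.30 with that difference across the 37 genes, against 0.01 across all genes. Word counts were not separated from length. These carry no test. A match is a run of letters and not a measured binding site.

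RBMS1 knockdown cells and control cells differed little in the import mRNAs. The difference, knockdown minus control and centred on its median over all genes (−0.02 before centring), had a median of −0.07 over the import genes. A difference of 1 or above was found for 0 of 37, against 4.87% of all genes, and of −1 or below for 0 of 37, against 4.16%. Above 0 lay 15 of 37 (40.5%), against 50% of all genes, a share set by the centring. Inside the quartiles of all genes, −0.19 and 0.23, were 25 import genes, with 8 below and 4 above. The quartiles of the import genes themselves were −0.16 and 0.05. Those of respiratory chain subunits were −0.12 and 0.07, and those of mitochondrial ribosomal proteins −0.15 and 0.05. This closeness is thus not particular to import genes. Of 77 genes in each of these groups, 3 respiratory chain subunits and 2 mitochondrial ribosomal proteins were at −1 or below. At 1 or above were 2 of each.

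Members with 1 transcript were the closest between the tables. Their median size of difference was 0.08 over 28 genes, against 0.16 over the 7283 genes with 1 listed transcript, of which 4.5% differed by 1 or more. For import genes with several transcripts the median size was 0.23, against 0.31 over all such genes. Pearson's r between the populations was 0.80 and Spearman's rho 0.84 across the 37 genes, and 0.92 and 0.90 across the 28, against 0.71 and 0.78 across all genes with 1 transcript. The sign was the same in 34 of 37 (91.9%), against 78.2% of all genes. Genes of 1 table share their libraries, so these are descriptions.

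The lowest differences were those of DNAJC19, TIMM22, TIMM10B and MTX1. DNAJC19 had a centred difference of −0.66, which became 0.05 with the coding transcript alone. That of TIMM22 was −0.51, of TIMM10B −0.34 and of MTX1 −0.31, each from 1 transcript. The highest were those of TIMM9 at 0.75, TOMM40 at 0.37, TOMM5 at 0.27 and TIMM29 at 0.26. For TIMM9, TOMM40 and TOMM5 a single transcript carried most of the difference, with centred differences of 1.96, 1.30 and 0.67 for these transcripts, and by the median over transcripts the values were 0.31 for TIMM9, 0.01 for TOMM40 and 0.21 for TOMM5. Among the 28 genes with 1 transcript, TIMM22 and TIMM10B had the largest differences in size, both lower in knockdown cells. Neither reached 2-fold, and without replicate values neither can be called.

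**Figure D4:**
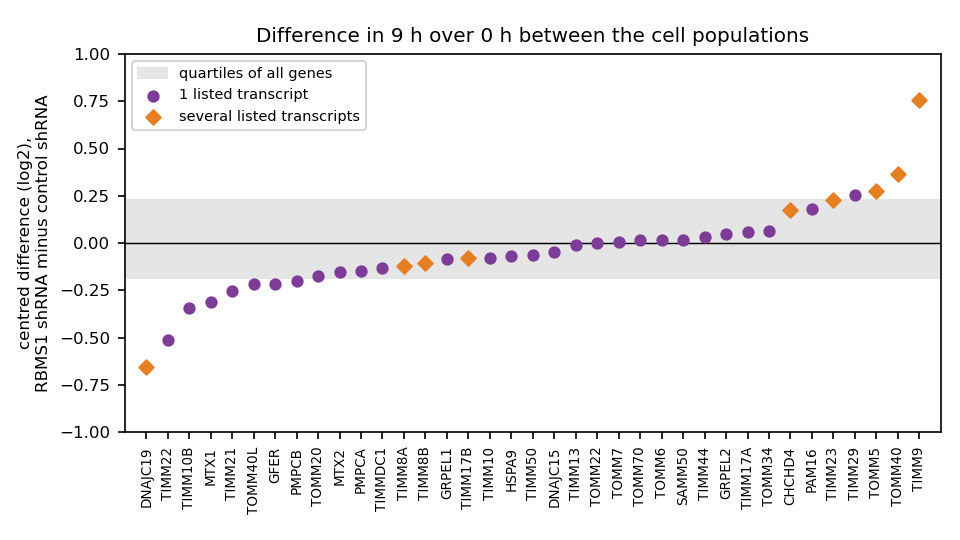
Centred difference of the log2 fold changes, RBMS1 shRNA minus control shRNA, for the 37 import genes in order of size, with the quartiles of all genes as a grey band. The outer values at both ends, DNAJC19 at −0.66 and TIMM9 at 0.75, belong to genes with several transcripts, and TIMM22 at −0.51 is the outermost gene with 1 transcript.

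Further genes of import, folding and membrane organisation were taken as a list of 52 measured genes: other mitochondrial proteases, matrix chaperonins, insertion factors, the MICOS complex of cristae junctions and cytosolic chaperones that deliver precursors. Their median was 0.27 in knockdown and 0.23 in control cells. Above 0 were 40 of 52 in knockdown and 37 of 52 in control cells, against 46.6% and 45.9% of all genes. At −1 or below were 1 in knockdown and 2 in control cells, against 9.49% and 10.7% of all genes. At 1 or above were 3 in each, near the share of all genes, 5.26% in knockdown and 4.84% in control cells. The 3 lowest by the mean of both populations were COX18, TIMM23B and APOOL. In the authors' deposited tables, COX18, an insertase for a respiratory chain subunit, had a transcript at 0.37 in knockdown and −8.30 in control cells and another at 0.24 in knockdown and 0.61 in control cells. TIMM23B was at −2.54 in knockdown and −0.29 in control cells and APOOL, a MICOS subunit, at −0.92 in knockdown and 0.13 in control cells in the authors' deposited tables. The 3 highest were PITRM1, the protease that degrades cleaved presequences, MTX3, a metaxin, and YME1L1, an inner membrane protease. PITRM1 averaged 1.36 in knockdown and 1.00 in control cells over 2 transcripts, MTX3 0.23 in knockdown and 1.73 in control cells over 2, and YME1L1 0.45 in knockdown and 1.25 in control cells over 3 transcripts of the authors' deposited tables. The transcripts behind these means lay apart. PITRM1 had NM_001242307 at 2.75 in knockdown and 1.68 in control cells and NM_014889 at −0.03 in knockdown and 0.31 in control cells in the authors' deposited tables. For MTX3, NM_001167741 was at 0.39 in knockdown and 3.41 in control cells and the other transcript at 0.07 in knockdown and 0.05 in control cells in the authors' deposited tables. Those of YME1L1 ran between 0.18 and 0.93 in knockdown and between 0.26 and 2.12 in control cells in the authors' deposited tables.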

How the data were processed

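Total RNA of 8 SW480 libraries, depleted of ribosomal RNA, was sequenced per the labels' protocols. The submitters' processing notes name STAR 2.5, Cufflinks, Cuffdiff and the build hg38 and do not say what each was used for. The authors deposited 2 tables, 1 per shRNA, with a log fold change per RefSeq transcript, per the file headers. Before deposit the authors had combined the libraries into these values, read here as log2 because Cuffdiff writes log2. The headers do not state the log base or which time is on top, and 9 h over 0 h was taken because MYC, FOS and JUN, mRNAs of rapid turnover, are below 0. MYC was at −1.38 in knockdown and −1.44 in control cells. FOS was at −1.24 in knockdown and −1.61 in control cells, and JUN at −0.81 and −1.01. How complete the inhibition was at 9 h was not tested. There were 20474 transcripts for knockdown and 21328 for control cells. No depth, counts or replicate spread is given, so no test or interval was computed, and nothing in the labels says that libraries came from separate cultures.

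Of 22468 accessions, 22132 were paired with symbols by the RefSeq gene table (GRCh38.p14) and 205 by GENCODE release 29; 131 were left out. Gene values were means over transcripts. Differences were computed over transcripts in both tables and centred. 3′UTRs came from the GENCODE model of the listed coding transcript with the longest one. Python 3.11.15 with pandas 2.3.3 and scipy 1.17.1 was used. The calculation was run on simulated data with large shifts and little noise, which checks its arithmetic and not the reliability of the differences here. The members and lists were chosen with earlier results of these data known. Every member was named; detail went to the 5 lowest and 5 highest means, the 4 smallest and 4 largest differences, transcripts 1 or more apart and paralogs. Alternatives were other summaries over transcripts, coding accessions, no extreme values, other scalings and another size threshold.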

Additional observations from a re-analysis of the deposited data

How the results depend on the processing

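The import medians, 0.12 in knockdown and 0.17 in control cells, moved by 0.1 or less with medians over transcripts, coding accessions only, transcripts in both tables only and without transcripts of size 5 or more. With the transcript nearest to 0 the control median was 0.061. Relative to cytosolic ribosomal protein mRNAs the medians were −0.25 in knockdown and −0.24 in control cells, and 3 genes in knockdown and 1 in control cells lay at −1 or below, against 18.8% of all genes in knockdown and 22.3% in control cells. The median difference moved by 0.1 or less under each alternative run. By medians over transcripts 1 gene, DNAJC19 at 1.06, lay at 1 or above in control cells. With a size of 0.5, knockdown cells had 4 lower and 2 higher import genes (24% and 14.1% of all genes), control cells 1 and 4 (26% and 14.2%), and the difference 2 and 1 (10.8% and 12.4%). No paired analysis was possible because the deposited values combine the libraries, and leaving out a library could not be run for the same reason. Without depth, mRNAs with few reads cannot be recognised.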

Other observations

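Outside the 37 genes, a transcript of TRAP1, a mitochondrial HSP90, held an extreme value of 9.44 in the authors' deposited table and was listed for control cells alone, while the other transcript of TRAP1 was at 0.31 in knockdown and 0.19 in control cells. Matrix folding factors (HSPD1, HSPE1, TRAP1, DNAJA3, DNLZ and HSCB) had a median of 0.35 in knockdown and 0.35 in control cells over transcripts in both tables and a median centred difference of 0.09; with the extreme TRAP1 transcript included, the control median was 0.45. The MICOS group had a median of 0.26 in knockdown and 0.28 in control cells over 8 genes.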
